A study of Mus musculus with 7 samples.

Results

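The regions described here are stretches of mouse DNA between genes with a LEF1 peak in every LEF1 library and a TCF1 peak in every TCF1 library of naive CD8 T cells. Peaks of the 6 deposited lists (chromosomes 1 to 19 and X) were merged where they overlapped by at least 1 bp, which gave 38215 regions. Of these, 10887 held a peak in all 6 libraries. A region was a member when its midpoint also lay outside every protein-coding gene, more than 1 kb and at most 50 kb from the nearest one. The members were thus chosen by the presence of a called peak in all 6 lists and by position, so neither is a finding. The rule left 2270 near-intergenic members, 20.9% of the regions found in all 6 libraries. The other regions of all 6 libraries comprised 3390 within 1 kb of a gene end, 4316 farther inside genes (intragenic) and 911 more than 50 kb away (far-intergenic).

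The study mapped the factors by CUT&RUN, where a nuclease held by an antibody releases the DNA near a bound protein for sequencing, with 3 libraries for LEF1 and 3 for TCF1. All 6 came from spleen cells of wild-type genotype that carried the transgenic P14 T cell receptor, sorted as CD8+, Ly5.1+, CD44- and CD62L+. The P14 receptor recognises a peptide of a mouse virus, so these cells are a narrower population than CD8 T cells at large. The series also labels 1 input control without antibody, from cells of a Ly5.1- gate, whose peaks were not analysed here. Treatment, time and animal age are not stated in the labels. Nor do they say whether each replicate is another animal. The p-values therefore measure the spread between libraries alone, and that may be technical.

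LEF1, encoded by Lef1, and TCF1, encoded by Tcf7, are HMG-box proteins of 1 family that bind the same short DNA motif in its minor groove and bend the DNA. They are needed for T cell development and for the identity and persistence of naive and memory CD8 T cells, and in Wnt signalling they are the partners of beta-catenin. DNA between genes holds many enhancers, which act on promoters at a distance, so the nearest gene is a label of position and need not be the gene that a region acts on.

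The 6 lists were unequal. LEF1 replicates 1, 2 and 3 had 27654, 37632 and 23695 peaks on these chromosomes, and TCF1 replicates 1, 2 and 3 had 25616, 22894 and 11418. Read totals are not given, so the depth is unknown. TCF1 replicate 3 stood apart: of the 1961 near-intergenic regions found in 5 libraries, 1957 (99.8%) lacked a peak in that library alone. Without it the same rule would leave 4227 members, so the number of members is set largely by that list. The sorted cell type could not be checked, since peak lists hold no expression. A peak near a gene does not show that the gene is expressed. By position, 6 of 9 marker genes of naive CD8 T cells were the nearest gene of a member (Cd8a, Cd8b1, Ccr7, Il7r, Lef1 and Tcf7). Of these, Lef1 and Tcf7 encode the mapped factors. The counts were 0 of 3 for CD4 T cells, 0 of 3 for NK cells and 1 of 4 for myeloid cells (Itgam). Such small sets describe position and do not establish a cell type.

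Sequence could be read where a member covered an annotated transcript start, and 6 such places are shown to let the letters under a shared summit be seen. RefSeq windows of 300 bases (250 before to 50 after a start, GRCm38.p6) overlapped 125 members, 123 of them with a window of a long non-coding RNA gene (lncRNA). The mean summit, the position of highest signal averaged over the 6 libraries, fell inside a window in 64 members. Printed are the 6 best-ranked members whose summits also lay within 50 bp of each other, by the lncRNA whose start the window holds, from 5′ to 3′ along its strand. Capitals mark the LEF1/TCF core CTTTG, the RUNX letters TGTGGTT or TGCGGTT and the ETS letters AGGAAGT or CGGAAGT, each on either strand, where CAAAG and ACTTCCT are the reverse complements. These windows were chosen after their ranks were seen.
Mir22hg: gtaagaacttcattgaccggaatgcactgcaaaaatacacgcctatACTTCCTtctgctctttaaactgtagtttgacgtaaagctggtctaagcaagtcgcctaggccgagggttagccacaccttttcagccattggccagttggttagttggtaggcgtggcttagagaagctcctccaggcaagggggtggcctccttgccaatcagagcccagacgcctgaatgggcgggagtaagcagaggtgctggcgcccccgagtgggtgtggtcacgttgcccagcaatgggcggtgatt
Gm39792: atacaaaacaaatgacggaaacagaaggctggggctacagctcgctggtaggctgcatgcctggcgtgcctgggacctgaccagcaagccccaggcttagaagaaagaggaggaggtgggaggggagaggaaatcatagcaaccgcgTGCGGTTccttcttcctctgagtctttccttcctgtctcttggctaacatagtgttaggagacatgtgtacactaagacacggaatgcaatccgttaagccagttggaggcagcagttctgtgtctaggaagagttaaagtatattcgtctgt
Gm5547: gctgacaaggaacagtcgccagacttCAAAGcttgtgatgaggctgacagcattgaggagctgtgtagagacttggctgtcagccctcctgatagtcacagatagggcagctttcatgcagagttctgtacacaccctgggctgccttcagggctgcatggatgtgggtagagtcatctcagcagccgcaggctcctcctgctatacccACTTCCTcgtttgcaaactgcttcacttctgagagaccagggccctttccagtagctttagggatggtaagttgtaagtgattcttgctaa
Gm46298: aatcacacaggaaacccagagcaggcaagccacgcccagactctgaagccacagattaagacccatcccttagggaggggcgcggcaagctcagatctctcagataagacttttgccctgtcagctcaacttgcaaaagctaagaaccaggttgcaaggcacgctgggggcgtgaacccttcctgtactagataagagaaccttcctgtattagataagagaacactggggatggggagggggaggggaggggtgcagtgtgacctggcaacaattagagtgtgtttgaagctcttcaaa
Gm4668: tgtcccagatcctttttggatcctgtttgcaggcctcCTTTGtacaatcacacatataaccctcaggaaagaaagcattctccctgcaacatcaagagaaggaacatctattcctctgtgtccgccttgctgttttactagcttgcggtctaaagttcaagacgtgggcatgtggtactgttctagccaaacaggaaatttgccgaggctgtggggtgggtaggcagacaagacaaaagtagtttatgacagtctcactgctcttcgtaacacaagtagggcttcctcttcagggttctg
A930006K02Rik: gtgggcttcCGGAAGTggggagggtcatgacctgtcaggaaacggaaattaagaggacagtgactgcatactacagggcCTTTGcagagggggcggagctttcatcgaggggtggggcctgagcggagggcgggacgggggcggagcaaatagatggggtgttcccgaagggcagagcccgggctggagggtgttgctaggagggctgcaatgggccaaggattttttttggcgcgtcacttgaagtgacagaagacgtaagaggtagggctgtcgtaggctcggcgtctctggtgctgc

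The first window lies at chr11:75461289-75461588 on the plus strand, beside Wdr81. Its member had fold enrichments of 69.5, 89.3 and 58.1 in the LEF1 libraries and 80.4, 77.4 and 41.8 in the TCF1 libraries. Fold enrichment is the authors' ratio of signal to local background at a peak and can be compared only within a list. The Mir22hg window holds ETS letters at bases 47 to 53, counted from its 5′ end, 86 bp from the mean summit, and no CTTTG. The Gm39792 window (chr2:33908350-33908649, minus strand, beside Mvb12b) holds RUNX letters at bases 148 to 154. The Gm5547 window (chr3:105815317-105815616, plus strand, beside Rap1a) holds both a CAAAG, 111 bp from the summit, and ETS letters, 73 bp from it.

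The fourth window, of Gm46298 (chr11:108910910-108911209, minus strand), lies 6.94 kb from Axin2, which encodes a feedback inhibitor of Wnt signalling. It holds none of the marked letters, which says only that they are not in this window. The Gm4668 window (chr9:116188930-116189229, plus strand) lies beside Tgfbr2, which encodes a receptor chain for TGF-beta, with a CTTTG 166 bp from the summit. The window of A930006K02Rik (chr16:91464854-91465153, plus strand) lies beside Ifnar1, the gene of a type I interferon receptor chain. Its CTTTG stands 41 bp from the summit and its ETS letters 110 bp. The 6 strong members thus do not share 1 arrangement of these letters.

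Over the 125 member windows, the longer LEF1/TCF letters, CTTTG followed by AT, by TT or by AA on either strand, occurred in 17.6% (95% exact Clopper-Pearson interval 11.4 to 25.4), beside 17.1% of all lncRNA windows and 13.9% of all 32851 windows of this length. The core CTTTG, which these contain, occurred in 68.0% (59.1 to 76.1), beside 58.9% and 53.9%. RUNX factors are partners of LEF1 and TCF1 in T cells, and their letters occurred in 12.8% (7.50 to 19.9), beside 7.53% and 6.75%. ETS letters occurred in 20.0% (13.4 to 28.1), beside 12.3% and 15.1%. The member windows had a median GC content of 52.3% and 7 CpG, against 61.3% and 22 CpG in windows of gene-end regions found in all 6 libraries. All lncRNA windows had 48.3% and 4 CpG, and all windows had 52.7% and 7 CpG. GGGCGG, the letters of KLF and SP factors, occurred in 32.8% of member windows (24.7 to 41.8) and 73.5% of those gene-end windows. The share was 16.3% in all lncRNA windows and 35.7% in all windows. ETS letters occurred in 24.6% of those gene-end windows. Letters of other factors were also counted, and most were about as frequent in member windows as in all lncRNA windows. The shares were 14.4% and 13.98% for GATA, 6.4% and 6.203% for AP-1, and 25.6% and 25.36% for NFAT. They were 9.6% and 9.374% for STAT and 33.6% and 34.79% for E box letters. The CTCF core occurred in 11.2% (6.26 to 18.08) and 6.393%. Many of the 125 windows do not hold the member's mean summit. In the 64 that do, the longer LEF1/TCF letters occurred in 20.3%, the core in 68.75% and RUNX letters in 15.6%. ETS letters occurred there in 23.4% and GGGCGG in 39.1%. All these intervals cover counting error only, and the windows stand for 125 of 2270 members.

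In width and summit position the members were much like the other regions away from gene ends. Their median width was 691 bp (quartiles 551 and 942, range 259 to 4053), beside 693.5 bp for intragenic and 713 bp for far-intergenic regions. The 6 summits of a member spanned a median of 46.5 bp, beside 48 and 46 bp in those classes and 54 bp at gene ends. In 1185 members (52.2%) all 6 summits lay within 50 bp, beside 52.1% of intragenic, 52.9% of far-intergenic and 47.9% of gene-end regions. The median summit distance in the members was 11.5 to 12 bp between 2 LEF1 libraries and 14 to 16 bp between 2 TCF1 libraries. Between a LEF1 and a TCF1 library it was 14 to 19 bp. The TCF1 pairs thus lay within the range of the pairs between factors, and only the LEF1 pairs lay below it. The means over pairs were 13.6 bp within and 15.7 bp between factors. The difference of 2.08 bp had the smallest p this design can give (exact permutation test, one-sided, p = 0.1), and it is far below the width of a peak. It was 1.5 bp without LEF1 replicate 1 or without LEF1 replicate 2 (exact permutation test, one-sided, p = 0.2 each), 0.75 bp without LEF1 replicate 3 (p = 0.3, same exact test) and 3.33 bp without TCF1 replicate 1 (p = 0.1, same exact test).

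Median peak widths in the members were 569, 652 and 569 bp for LEF1 and 569, 533 and 328 bp for TCF1. The groups overlapped, with a difference in means of 120 bp (exact permutation test, two-sided, p = 0.3), and the difference was 51.3 bp without TCF1 replicate 3. The median fold enrichment of the members was 23.5, 32.5 and 20.0 in the LEF1 lists and 21.8, 19.8 and 9.87 in the TCF1 lists.

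Members became sparser with distance from genes, while their strength hardly varied. Per Mb of intergenic DNA at that distance there were 5.77 members at 1 to 2 kb (182 members), 4.35 at 2 to 5 kb (351), 4.21 at 5 to 10 kb (435), 3.95 at 10 to 20 kb (566), 3.33 at 20 to 30 kb (329) and 2.97 at 30 to 50 kb (407). The density in the nearest zone was thus highest and fell in each zone beyond it, around 3.82 per Mb in all. The median distance was 12.7 kb (quartiles 5.34 and 24.4 kb). Near-intergenic regions found in any library also became sparser with distance. There were 789 in 31.5 Mb at 1 to 2 kb and 1483 in 137 Mb at 30 to 50 kb.

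Strength was described by the rank of the authors' fold enrichment among the 10887 regions within each list, as a percentile where 0 is the strongest and 100 the weakest. Averaged over libraries and members, it was 46.0 to 47.7 in every distance zone. The share of near-intergenic regions that were found in all 6 libraries was 23.1% (20.2 to 26.2) at 1 to 2 kb and 21.0% (19.1 to 23.1) at 2 to 5 kb, and 26.6% to 27.4% in the 3 zones beyond 10 kb. Over all distances it was 24.95% (24.1 to 25.9), close to the 25.4% of intragenic regions and below the 38.4% (37.4 to 39.5) of gene-end regions. Among far-intergenic regions the share was 27.3% (25.8 to 28.8).

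**Figure D1:**
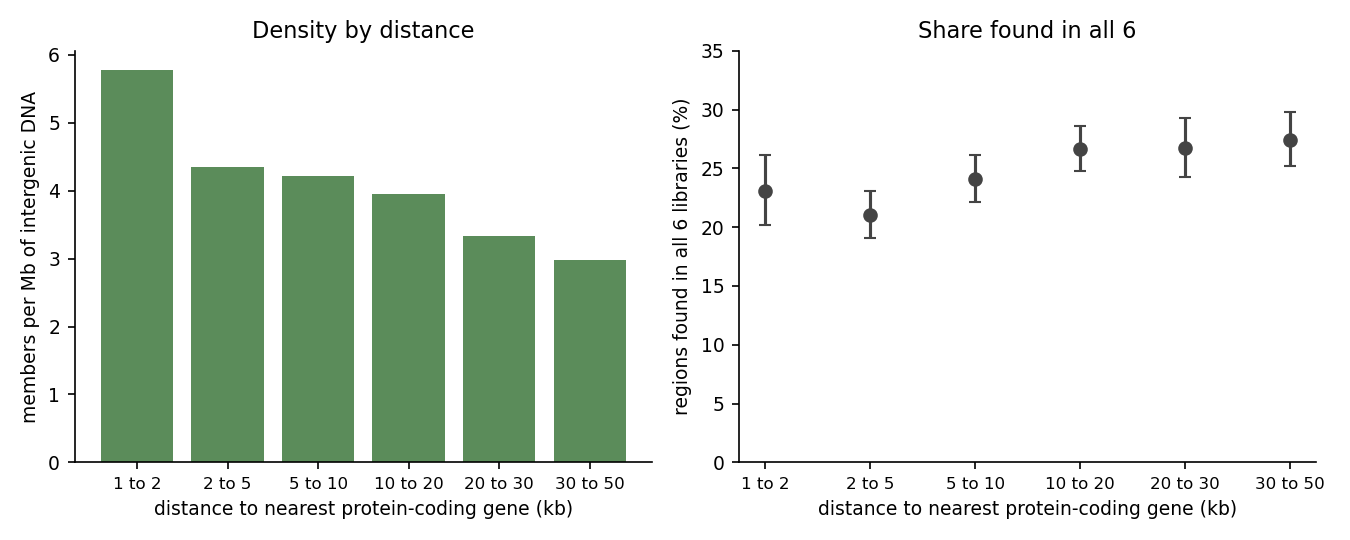
Left, members per Mb of intergenic DNA in 6 zones of distance from the nearest protein-coding gene (kb). Right, the percentage of near-intergenic regions in each zone that held a peak in all 6 libraries, with 95% exact binomial intervals for counting error. Density falls from 5.77 to 2.97 per Mb, while the share found in all 6 is lowest at 2 to 5 kb.

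The limits of 1 and 50 kb cut through a continuous range of distances. Just inside them lay members 1.003 kb from Rasl11b and 1.011 kb from Ifngr2, and 49.9 kb from D16Ertd472e and from Otud7a. Just outside lay regions 0.984 kb from Cd2, 0.989 kb from Tut4, 50.003 kb from Cd47 and 50.032 kb from Tmem26. The last, with a mean rank percentile of 0.661, was stronger than nearly all members.

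The strongest members lay near genes of several kinds. The member with the best mean rank lies 13.96 kb upstream of Dapl1, known as a marker of naive T cells (chr2:59469070-59472325). Its fold enrichment was 206, 264 and 195 in the LEF1 libraries and 244, 204 and 117 in the TCF1 libraries, the highest of any member in each list. The next lies 13.4 kb upstream of Ifngr2, which encodes a chain of the interferon gamma receptor (chr16:91532863-91534413), with 148, 209 and 136 for LEF1 and 156, 152 and 83.8 for TCF1. Its strongest summit stood at the same base in all 6 libraries. The third is the widest member, 4053 bp, with its midpoint 1.20 kb upstream of Pym1, which encodes a factor that takes exon junction complexes off mRNA (chr10:128744653-128748705), and its width takes it across the start of that gene and over the start window of Dgka, a diacylglycerol kinase gene.

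The other 9 of the 12 best-ranked members had as nearest genes Emb, a cell surface glycoprotein gene, Plcl2, Spsb4, Zyg11b, Lrrc74a, Fasl, Ms4a4a, Arap2 and Plac8. Their mean rank percentiles were 0.118 to 0.468. Fasl encodes the death ligand of cytotoxic T cells, and its member (chr1:161778707-161779856) lies 1.41 kb downstream of the gene. Fold enrichment there was 148, 186 and 97.5 for LEF1 and 118, 110 and 66.6 for TCF1. None of the 12 passed the test of a rank difference between the factors (limma, adjusted p from 0.088 to 0.922). The 8 weakest members had mean rank percentiles of 97.6 to 98.5.

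Members were spread over 1557 genes, 7.2% of the 21631 protein-coding genes, and some genes had many. There were 1117 genes with 1 member, 285 with 2 and 81 with 3, and 362 pairs of neighbouring members lay within 5 kb of each other. Cxcr4, the gene of a chemokine receptor for bone marrow homing, had the most, with 9 members from 9.20 to 39.1 kb away, 7 of them upstream. Their mean rank percentiles ran from 2.89 to 81.1. The strongest (chr1:128605568-128606668) had fold enrichments of 83.9, 103 and 65.1 for LEF1 and 76.6, 72.6 and 33.8 for TCF1, with the 6 summits within 7 bp.

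Tcf7, which encodes TCF1 itself, had 6 members, all upstream, at 16.5 to 38.4 kb. The strongest, 31.0 kb from the gene (chr11:52313387-52315418), had fold enrichments of 98.0, 140 and 93.4 for LEF1 and 119, 117 and 63.2 for TCF1, and its summits lay within 3 bp. It stands inside the lncRNA gene Gm30217. Of the other 5, those at 26.3 and 35.1 kb had mean rank percentiles of 4.94 and 6.35, that at 16.5 kb had 20.6, and those at 27.6 and 38.4 kb were weak, at 76.4 and 75.8. Strong and weak members thus lay along the same stretch.

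Lef1 had 1 member, 4.16 kb upstream (chr3:131105565-131106718), with fold enrichments of 57.5, 81.8 and 52.8 for LEF1 and 52.9, 49.5 and 32.4 for TCF1. Its mean rank percentile was 6.49. The difference in rank score at this member was 0.03 (limma, adjusted p = 0.872).

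Btg1, Ccr7, Dad1, Katnal1 and S1pr1 had 7 members each. Btg1 encodes an antiproliferative protein that maintains quiescence of naive T cells, and its members at 7.29 and 14.5 kb upstream ranked at 14.3 and 14.5. The rest of its members ranked from 27.6 to 91.1. Ccr7 and S1pr1 encode the receptors for entry into and exit from lymph nodes. The strongest Ccr7 member, 16.1 kb away (chr11:99170586-99171828), had fold enrichments of 106, 140 and 97.0 for LEF1 and 99.8, 87.5 and 48.1 for TCF1. The best S1pr1 member, 27.6 kb away, ranked at 3.61. Katnal1 encodes a microtubule-severing protein, and its members ranked from 6.66 to 83.8.

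The 7 members counted at Dad1, a gene of protein glycosylation in most cells, lie downstream of it toward Trac, the constant region of the T cell receptor alpha chain, which the rule does not count as a protein-coding gene. The midpoints of 3 lie inside Trac and those of the other 4 lie 1.40 to 9.03 kb from it. The strongest, 2.26 kb from Dad1 (chr14:54232399-54234057), had fold enrichments of 106, 139 and 85.1 for LEF1 and 114, 114 and 60.0 for TCF1. At the receptor beta chain locus, 5 members counted at Prss2 lay within 3.55 kb of Trbd1, Trbd2, Trbj2-7 or Trbv31, with mean rank percentiles of 4.96 to 86.9.

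Fasl and Il6st, the gene of the shared signalling chain of IL-6 family receptors, had 6 members each. All 6 at Fasl lay downstream, at 1.41 to 45.7 kb, with mean rank percentiles of 0.351 to 40.7. Those at Il6st ranked from 6.30 to 75.7. A further 18 genes had 5 members each, of which Dapl1, Irf2bpl and Dhx40 are shown with the 9 genes above because they had the best-ranked single member.

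**Figure D2:**
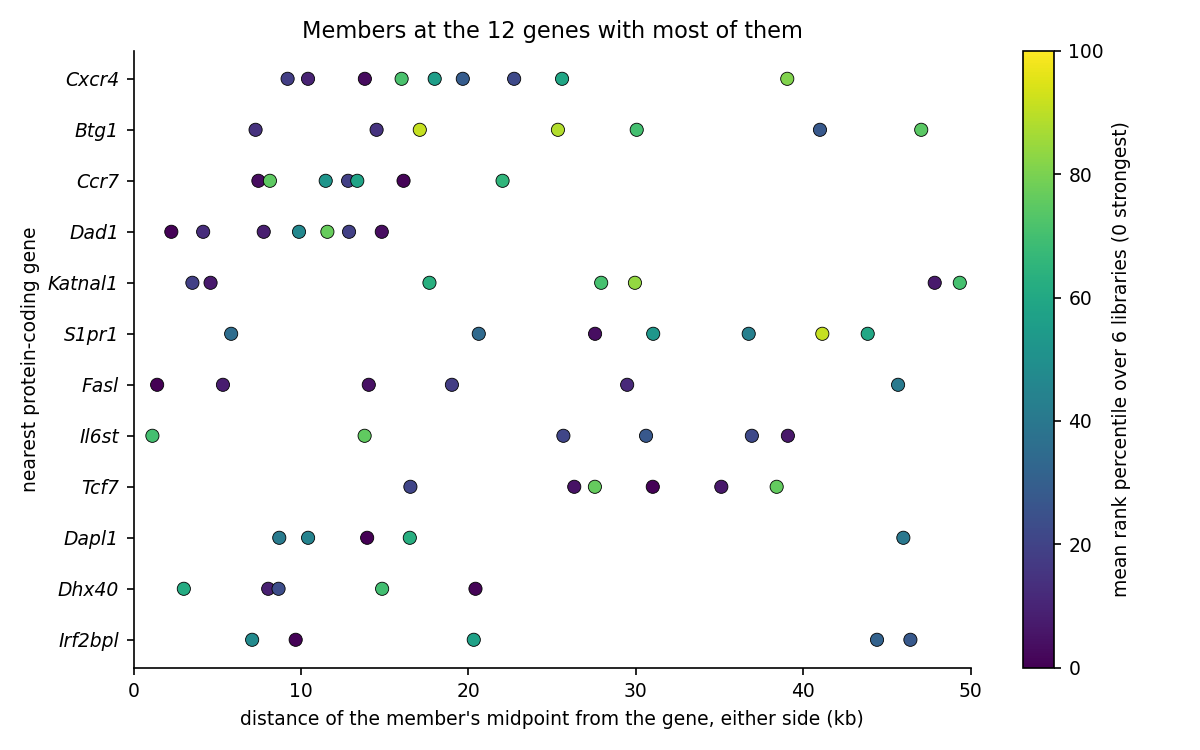
Each point is 1 member, placed by its distance in kb (either side of the gene) and coloured by its mean rank percentile over the 6 libraries, for the 9 genes with 6 or more members and for 3 of the 18 with 5, kept for their best-ranked member. The 9 members of Cxcr4 lie 9.20 to 39.1 kb from it, with percentiles from 2.89 to 81.1.

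The gene lists were chosen with earlier results of these data known, so their shares are a description and not independent support. Of 25 naive and stem-like T cell genes, 19 were the nearest gene of a member (55 members), beside 7.2% of all protein-coding genes. Ccr7, S1pr1, Tcf7 and Dapl1 had the most. Of 25 genes of T cell identity and receptor signalling, 14 had a member (36 members), with 5 at Cd28, the costimulatory receptor gene, and 4 each at Cd5, Thy1 and Cd8b1. The lists were not matched on the amount of intergenic DNA around their genes, on expression or on open chromatin.

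Cytokine receptor and signalling genes had a member at 19 of 27 (37 members), led by Il6st, Tgfbr2, Ifnar1 and Ifngr2. Homing and adhesion genes had members at 9 of 19 (39 members). Beside Cxcr4, Ccr7 and S1pr1 these included Ccr9, the receptor gene for homing to the gut, with 4 members and a best mean rank percentile of 3.18.

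Effector and exhaustion genes had members at 15 of 30 (36 members). Cd69, an early activation marker gene that also holds cells in tissue, had 5, the best at 1.55. Gzmb, the granzyme B gene, had 4, all upstream at 22.2 to 42.0 kb. Ifng, the interferon gamma gene, had 3, of which the strongest lay 21.6 kb away (chr10:118418638-118420240) with fold enrichments of 100.2, 126 and 90.3 for LEF1 and 98.4, 86.5 and 51.1 for TCF1.

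Genes of cell cycle, quiescence and survival had members at 9 of 20 (22 members), among them Klf2, a quiescence factor gene, Btg2 and the survival gene Mcl1. AP-1, NFAT and NF-kB factor genes had them at 7 of 19 (16 members). The strongest was 26.7 kb upstream of Fos, with a mean rank percentile of 0.580. Wnt pathway genes had members at 5 of 24 (11 members), and 7 of these 11 were those of Tcf7 and Lef1. Tle3, a co-repressor gene, had 2 and Axin2 had 1.

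Among lists of other cells and of common functions, 2 of 10 myeloid genes (Itgam and Cebpb) and 2 of 8 NK cell genes (Klrk1 and Nfil3) had a member. So did 3 of 24 housekeeping genes, of which Actb had 3 members. On these small counts the shares were 20%, 25% and 12.5%, each above the 7.2% of all protein-coding genes. None of the 20 genes of neurons and liver had one. The members of the lists ranked both above and below the median of all members, 46.7. The median rank percentile was 18.8 for the Wnt pathway, 22.2 for cytokine receptors, 26.1 for effector genes, 26.55 for NK cell genes, 36.8 for AP-1, NFAT and NF-kB factors, 41.4 for T cell identity and 44.8 for naive and stem-like genes. It was 50.5 for homing, 50.6 for myeloid, 64.55 for cell cycle and 67.8 for housekeeping genes. No test was made between lists.

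**Figure D3:**
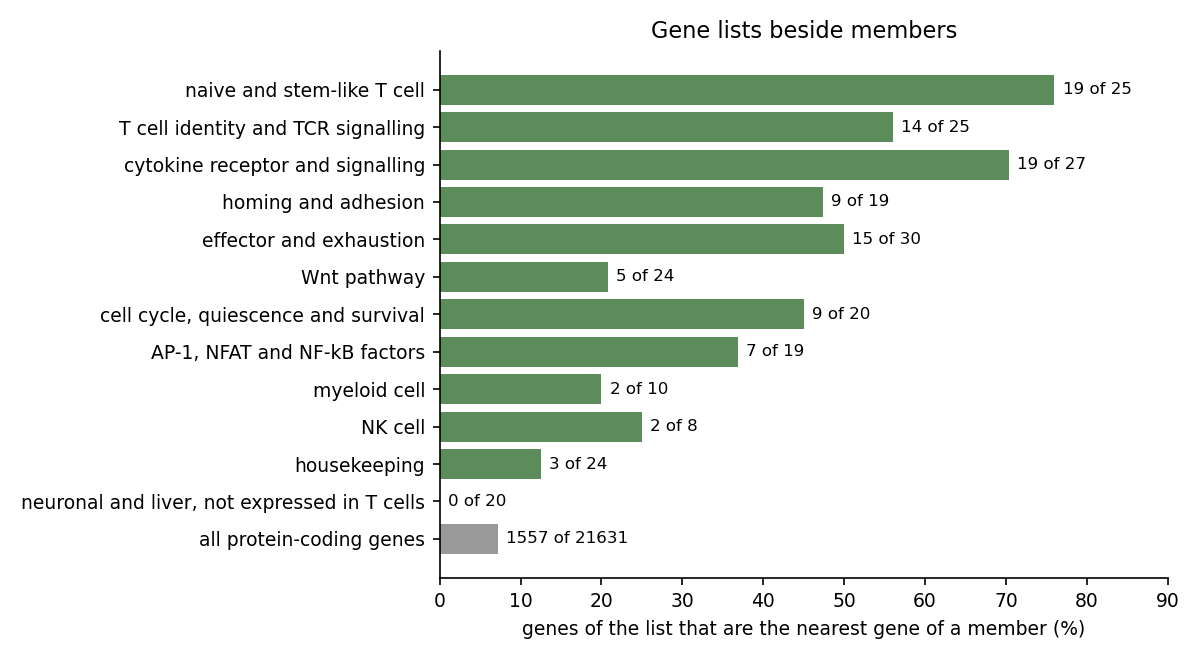
Bars give the percentage of the genes of each list that were the nearest protein-coding gene of at least 1 member, with the counts beside them, and the grey bar gives the same for all genes. Naive and stem-like genes (19 of 25) and cytokine receptor genes (19 of 27) have the longest bars, and the neuronal and liver list has none.

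Although outside protein-coding genes, 538 members (23.7%) had their midpoint inside a non-coding gene, 495 of them an lncRNA gene. The best-ranked of these lay in Gm34086 beside Vps37b (mean rank percentile 0.580), in Gm30217 beside Tcf7, and in Gm5907 beside Tdrp. The next were in 5031425E22Rik beside Kmt2e, Gm32249 beside Ccr7, Gm33742 beside Dhx40, Gm31108 beside C2cd5 and Gm40321 beside Rflna (0.880 to 1.19). Members within 1 kb of an end of a non-coding gene numbered 348 (15.3%). They ranked 4.30 ± 0.573 percentile points weaker than the other members in the LEF1 libraries (SD, n = 3) and 3.75 ± 0.924 weaker in the TCF1 libraries (SD, n = 3). The gap did not differ between the factors beyond this spread (exact permutation test, two-sided, p = 0.5).

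The comparison of the factors asked whether LEF1 or TCF1 favoured these places. Peaks at near-intergenic positions, whether or not shared, made up 23.5%, 23.9% and 23.3% of the LEF1 lists and 21.6%, 21.8% and 21.0% of the TCF1 lists. Every LEF1 library was above every TCF1 library. The means were 23.6% ± 0.350 and 21.5% ± 0.399 (SD, n = 3 each). The difference was 2.12 percentage points (exact permutation test, two-sided, p = 0.1), and no smaller p can be had with 3 libraries a side. Intragenic peaks also made up more of the LEF1 lists, 43.8% ± 0.694 against 40.8% ± 1.12, a difference of 2.99 points (SD, n = 3 each). Far-intergenic peaks made up 8.66% ± 0.101 against 8.29% ± 0.0898, a difference of 0.373 points (SD, n = 3 each). Both differences had p = 0.1 (exact permutation test, two-sided). The higher LEF1 share was thus common to the classes outside gene ends. Gene-end peaks went the other way, 24.0% ± 1.13 for LEF1 and 29.4% ± 1.58 for TCF1 (SD, n = 3 each), so the shares of the classes are not independent of each other.

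Within the regions of all 6 libraries, the members had mean rank percentiles of 45.2, 45.0 and 45.5 in the LEF1 lists and 47.7, 47.7 and 48.6 in the TCF1 lists. They thus ranked stronger in every LEF1 library, with means of 45.2 ± 0.226 and 48.0 ± 0.479 (SD, n = 3 each; difference -2.79, exact permutation test, two-sided, p = 0.1). A rank depends on the regions it is set against, and gene-end regions ranked weaker in LEF1 by 5.95 points. Ranked only among the 7497 regions outside gene ends, an alternative added after seeing the data, the members had 49.6, 49.6 and 49.5 in the LEF1 lists and 49.8, 49.6 and 49.7 in the TCF1 lists. The groups then overlapped and the difference was -0.076 (exact permutation test, two-sided, p = 0.4). In the same change of ranking the difference of far-intergenic regions went from -3.96 to -1.38, and that of intragenic regions from -2.37 to 0.33 (exact permutation test, two-sided; each of these values had p = 0.1).

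**Figure D4:**
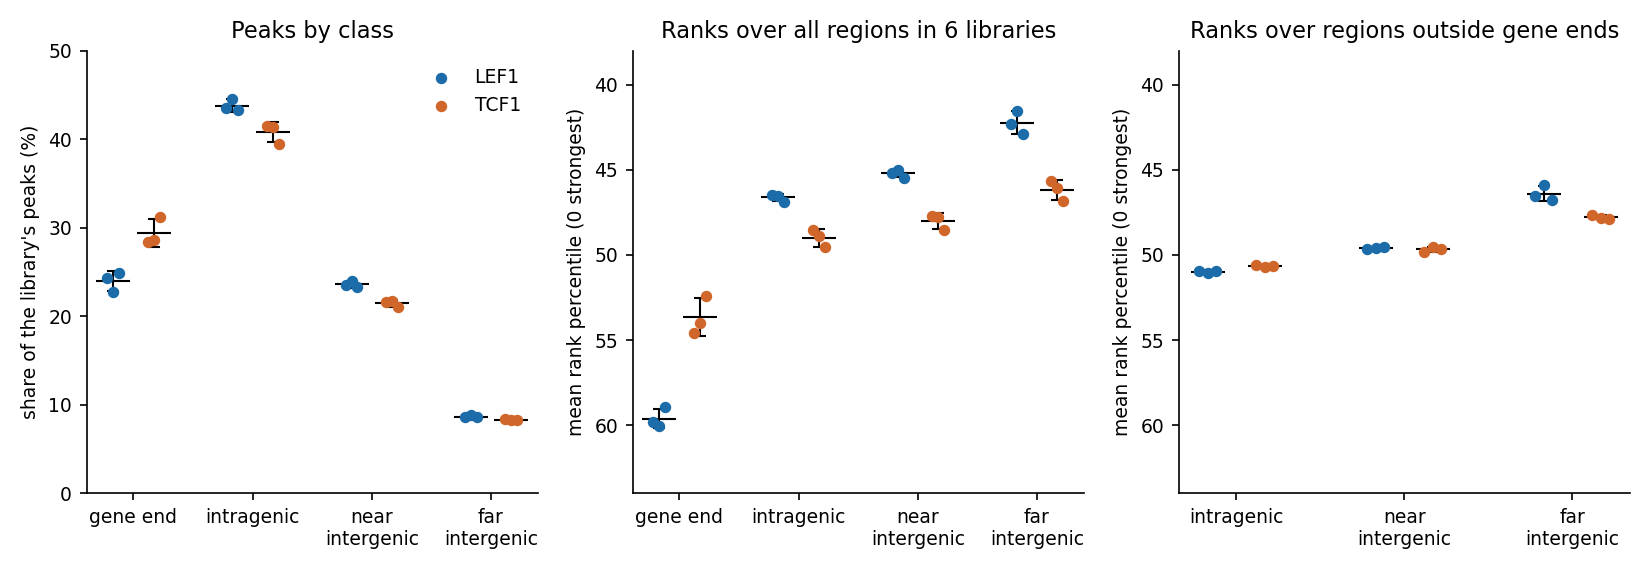
Points are libraries (LEF1 blue, TCF1 orange, 3 each), and black bars are means with SD, for peaks or regions by position. Left, the share of a library's peaks in each class (%); middle, mean rank percentile among the 10887 regions of all 6 libraries; right, the same among the 7497 outside gene ends. Both rank axes run from weak (bottom) to strong (top), and the near-intergenic groups are apart in the middle and overlap on the right.

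Single members were tested on a rank score, the rank within each list turned into the matching quantile of a normal distribution, with limma over all 10887 regions and Benjamini-Hochberg adjustment. Of the members, 89 (3.92%, 95% exact interval 3.16 to 4.80) ranked higher in LEF1 at an adjusted p under 0.05, beside 3.12% of all regions. Another 33 (1.45%, 1.00 to 2.04) ranked higher in TCF1, beside 5.92% of all regions. Among intragenic regions the shares were 3.85% for LEF1 and 2.57% for TCF1, and among far-intergenic regions 3.40% and 1.32%. The median difference was 0.09 over the members and 0.03 over all regions. Gene-end regions, of which 488 of 3390 ranked higher in TCF1, made up most of the calls in that direction. Among regions outside gene ends only, 26 members were called higher in LEF1 and 33 in TCF1, beside 1.11% and 2.11% of those regions. All 26 and 30 of the 33 were also called in the ranking over all regions. The surplus of LEF1 calls among the members was therefore not kept in that ranking. The number of calls also moved with single libraries. In favour of LEF1 it was 17, 18 and 37 without LEF1 replicate 1, 2 and 3, and 56 and 48 without TCF1 replicate 1 and 2. Without TCF1 replicate 3 it was 97, among the larger set of 4227 members. In favour of TCF1 it was 15 and 14 without LEF1 replicate 1 and 2, and 17 and 21 without TCF1 replicate 2 and 3.

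Non-overlap of the libraries was counted only in the ranking over all regions. All 3 LEF1 libraries ranked 477 members (21.0%) above all 3 TCF1 libraries, beside 17.4% of all regions. The reverse held for 230 members (10.1%), beside 17.5%. In the same order, the shares were 20.48% and 10.73% of intragenic regions and 24.7% and 6.367% of far-intergenic regions. Among gene-end regions they were 8.997% and 34.04%. The lean to LEF1 was thus common to the classes outside gene ends and not particular to the members. The called members were weaker and less sharply placed than most: the median rank percentile was 64.5 for the 89 and 60.9 for the 33, against 46.7 for all members, and the median summit spread was 71 and 83 bp against 46.5 bp. Of the 89, 17 (19.1%, 11.5 to 28.8) lay within 1 kb of a non-coding gene end, and of the 33, 10 did (30.3%, 15.6 to 48.7), against 15.3% of all members.

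The member with the smallest p in favour of LEF1 lies 2.02 kb downstream of Slc16a12, which encodes a monocarboxylate transporter (chr19:34666145-34666617). Its rank percentiles were 60.8, 54.2 and 57.0 in the LEF1 lists and 89.8, 88.9 and 88.9 in the TCF1 lists. The groups were far apart, with a difference in rank score of 1.05 ± 0.09 (SE; limma, adjusted p = 0.00257). The next members on this side lie near Ostc, Sfmbt2, Lrrc74a, Sh2b1 and Tasor, a gene of heterochromatic silencing, with differences of 0.73 to 1.41 (limma, adjusted p from 0.00553 to 0.00703). Those near Sh2b1 and Tasor lost the call without TCF1 replicate 3 (limma, adjusted p = 0.066 and 0.058). The members near Slc16a12, Ostc, Sfmbt2 and Tasor had no value with lists cut to equal sizes or to a stricter q. Their calls could not be checked there. The Lrrc74a member (chr12:86807136-86808058) lies beside one of the 12 strongest members (chr12:86810400-86811458), which did not pass the test (limma, adjusted p = 0.244).

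In favour of TCF1, the smallest p was found 21.4 kb downstream of Slc4a8, a bicarbonate transporter gene (chr15:100845046-100845778). Rank percentiles there were 92.7, 94.6 and 91.6 for LEF1 and 55.9, 55.7 and 45.5 for TCF1 (difference -1.42 ± 0.12, SE; limma, adjusted p = 0.00224). The second lies 1.11 kb upstream of Junb, the gene of an AP-1 factor (chr8:84979447-84980273). Fold enrichment was 19.6, 29.9 and 15.2 for LEF1 and 39.5, 37.7 and 19.5 for TCF1, and the ranks were 55.8, 49.7 and 62.9 against 16.5, 14.8 and 14.7. All 3 TCF1 libraries were above all 3 LEF1 libraries by more than 30 percentile points (difference -1.18 ± 0.11, SE; limma, adjusted p = 0.00384). The others lie near Sfi1, Gne, an enzyme gene of sialic acid synthesis, Was, the gene of an actin regulator of blood cells, and Pum2, with differences of -0.97 to -1.45 (limma, adjusted p from 0.00505 to 0.00703). The Sfi1 member lies 49 bp from the pseudogene Pisd-ps1 and the Was member 161 bp from Gm6787, and how the authors placed reads shared between gene copies is not known here. All 12 of these members were also called among regions outside gene ends (limma, adjusted p from 0.00641 to 0.0246). With lists cut to equal sizes, the members near Slc4a8, Sfi1 and Pum2 had no value. The Pum2 member had none with a stricter q either, so these calls could not be checked there.

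**Figure D5:**
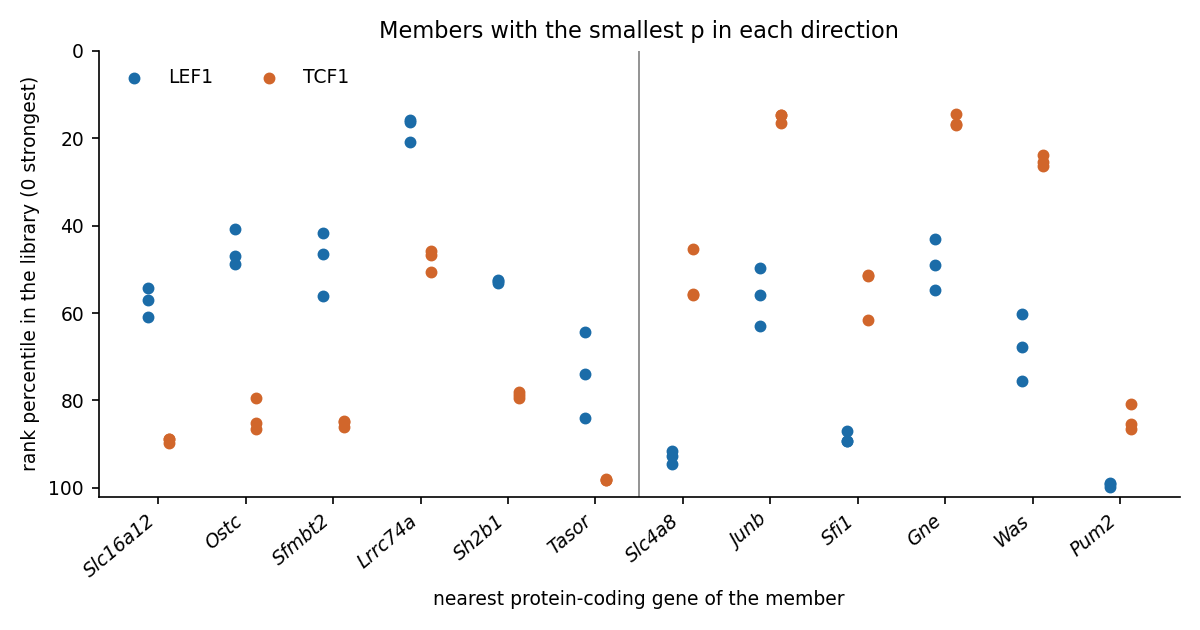
Rank percentile (0 strongest, at the top) of 12 members in each LEF1 (blue) and TCF1 (orange) library, named by nearest gene. The 6 left of the grey line have the smallest p in favour of LEF1 and the 6 right of it in favour of TCF1, so the groups are apart by choice, with ranks of 14.7 to 16.5 for TCF1 at Junb.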

How the data were processed

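LEF1 and TCF1 CUT&RUN libraries of naive CD8 T cells (3 each) were compared as peak lists. The submitters' processing notes list MACS3 3.0.3 and Bowtie2 2.4.4 among the tools, with Trim Galore 0.6.6, Picard, FastQC 0.12.1 and deepTools 3.5.1, and the build GRCm38.p6. Not given in the sources used here are the peak caller's options and control. Each list's peak names hold the name of its library, so the authors made a separate call for each library. The deposited fold enrichment is the ratio of a peak's signal to its local background. The deposited p-value and q-value are −log10 values, the deposited score is a whole number, and the summit is the authors' deposited offset from the peak start.

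An interval with several listed summits entered once, with its highest fold enrichment. Coordinates are 1-based. Genes came from a RefSeq table of the same build (21631 protein-coding genes on these chromosomes). Distances run from the region's midpoint to the nearest gene. Strand came from the start windows and was known for 79.2% of the members' nearest genes, below the 80% needed, so no count of sides is given over all members. Groups and replicate numbers come from the titles.

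Tests were exact permutation tests over the 20 assignments of libraries (smallest two-sided p 0.1) and limma 3.58.1 (R 4.3.3) on rank scores. Python 3.11.15 and scipy 1.17.1 did the rest. In data simulated for the limma comparison of 10887 regions, with 200 regions shifted by 1.5, 86.5% were recovered and 6 of 179 calls were false. The called members had differences from 0.412 to 1.70 for LEF1 and from -0.399 to -1.45 for TCF1. Recovery of shifts smaller than 1.5 was not tested. Alternatives were leaving out each library, equal list sizes, a stricter q, other overlap and distance limits, ranks by q, a replicate block, and ranks outside gene ends.

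The result of 1 gene list is not reported here. Members and gene lists were chosen with earlier results of these data known. The text names the 12 best-ranked and 8 weakest members, the 12 genes with most members (ties by best mean rank), up to 4 genes per list, the 8 best members in non-coding genes, the 6 members with the smallest p per direction and those next to the distance limits. The printed windows and the receptor segments were chosen after their values were seen.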

Additional observations from a re-analysis of the deposited data

How the results depend on the processing

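The LEF1 minus TCF1 differences in near-intergenic share of peaks (1.86 to 2.32 percentage points) and in mean rank of the members over all regions (-2.11 to -3.19) kept their direction under every alternative run; the rank difference shrank to -0.076 only in the ranking outside gene ends (exact permutation p = 0.4). The counts of limma calls moved most. Leaving out 1 library gave 67 to 248 regions higher in LEF1 and 236 to 391 in TCF1, and 17 to 97 and 14 to 26 members; the cause was not tested, and without TCF1 replicate 3 the set of members is larger. With equal list sizes the counts were 185 and 317 regions and 49 members higher in LEF1, and 26 members were higher in LEF1 in the ranking outside gene ends. The number of members was 2270 to 4227 and the share of near-intergenic regions found in every library 24.997% to 46.5% when 1 library was left out, and that share was 56.8% with equal list sizes.

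Replicate numbers were not shown to pair the libraries: the correlation of deviations was 0.032, 0.062 and 0.066 for same-numbered libraries, and the library names in the labels carry other numbers. With the replicate block, limma called 136 regions higher in LEF1 and 367 in TCF1, and 35 and 21 members. The share and rank differences stayed 2.12 and -2.79 with the block (exact permutation p = 0.25 for both, the smallest that 3 pairs allow). Every library correlated best with its own number, a hint from the data and not from the design. Depth is unknown, so its part in the regions that the shortest list lacks was not tested, and those regions cannot be called absent.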

Other observations

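Members were unevenly spread over the chromosomes. Chromosome 11 held 189 in 28.6 Mb of near-intergenic DNA, or 6.61 per Mb, and chromosome 1 held 189, or 4.95 per Mb. The X chromosome held 29 in 45.4 Mb, or 0.639 per Mb, while the other autosomes held 2.98 to 4.68 per Mb. No test was made of these densities.

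A few members lay in genes of other kinds. Those in 6 tRNA genes were all of the weaker kind, with mean rank percentiles of 64.7 to 86.3. At the immunoglobulin heavy chain locus, 4 members lay within 2 kb of Ighd3-2, Ighd1-1, Ighv1-85 and Ighv1-86, with mean rank percentiles of 29.9 to 78.2. The last of these ranked higher in LEF1 (difference in rank score 0.62, limma, adjusted p = 0.0233). Near segments of the receptor gamma chain, 2 members beside Amph had mean rank percentiles of 21.8 and 59.1. These members were chosen after their values were seen.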
